A study of Danio rerio with 10 samples.

Results

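Selenoproteins carry selenocysteine, an amino acid built from selenium that is placed at UGA codons by a dedicated set of factors. The transcripts described here are those of the selenoproteins and of that synthesis machinery in zebrafish embryos exposed to thallium, a toxic heavy metal that is thought to interact with selenium. The genes are the rows of the read count files whose symbol starts with seleno, together with named glutathione peroxidases, thioredoxin reductases, methionine sulfoxide reductases, deiodinases and machinery factors. They came to 38 of 32057 genes, 20 by symbol and 18 by name. Of these, 36 had enough reads to be tested, while second rows of TXNRD2 (ENSDARG00000094470) and MSRB1 (ENSDARG00000045160) had 0 reads in every library. The question was whether the lower selenop level at 800 ppb was shared by other selenoproteins.

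Whole wild-type embryos were kept in thallium nitrate (TlNO3) at 0, 200 or 800 ppb from 6 to 48 hours post fertilisation (hpf), and total RNA was sequenced in 5 libraries at 0 ppb, 3 at 200 ppb and 2 at 800 ppb. Each library held 12.1 to 48.3 megareads on genes. The labels name neither strain, clutch nor the number of embryos per library, and p-values therefore reflect a spread among libraries that may be technical only. Markers of muscle, blood, skin, lens, neurons and cartilage were all present, and their summed level was 34072 to 38258 CPM at 800 ppb and 23527 to 47269 CPM at 0 ppb.

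In vertebrates, selenoprotein P (selenop) is a secreted protein with many selenocysteines that carries selenium in the blood, and cells take it up through receptors of the low-density lipoprotein receptor family. Inside cells, glutathione peroxidases and thioredoxin reductases use selenocysteine to reduce peroxides and thioredoxin, and deiodinases use it to activate or inactivate thyroid hormone. In mammals short of selenium, transcripts of some selenoproteins, such as GPX1 and SELENOW, are lost before others, such as GPX4.

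Library preparation split the samples. Replicate 1 of 0 and of 200 ppb was built in a hospital's sequencing core, whereas a commercial provider built the remaining 8, and the provider's libraries fell into 3 clusters by the ratio of both deposited count sets, which does not use the dose. Library cluster 1 is the hospital core's pair, cluster 2 holds replicate 2 of 0 and 200 ppb, cluster 3 holds replicate 3 of both, and cluster 4 holds replicates 4 and 5 of 0 ppb with both libraries of 800 ppb. What separates the clusters was not tested. Each comparison with 0 ppb was therefore fitted with the preparation site as a term, and again with the library cluster as a term. The cluster term sets 800 ppb against the 0 ppb libraries of its own cluster. The comparison of 800 ppb with 200 ppb was fitted with the library cluster term only.

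Selenop (ENSDARG00000093549) was the only member below the 0.05 threshold of edgeR's adjusted p at 800 ppb against 0 ppb, with the library cluster term but not with the site term. Levels are given in CPM, reads relative to the library total after TMM scaling, edgeR's correction for library composition. Its level at 0 ppb was 632, 1013, 848, 962 and 1039.8 CPM in replicates 1 to 5. At 200 ppb it was 565, 964 and 744 CPM in replicates 1 to 3, and at 800 ppb 597 and 581.5 CPM in replicates 1 and 2. Both 800 ppb libraries lay below every 0 ppb library, although the hospital core's 0 ppb library was close to them and its 200 ppb library was lower still. The other 0 ppb libraries stood well above.

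Within its own library cluster, selenop at 800 ppb stood at 0.596 and 0.581 of the 0 ppb mean of 1001 CPM. In the library cluster fit its log2 fold change at 800 ppb against 0 ppb was -0.76 (SE 0.067, 95% interval -0.91 to -0.62, edgeR adjusted p = 8.39e-05). The lower selenop level was the starting point of the question, and this fit was chosen with earlier results of these data known. The adjusted p of selenop in the cluster fit is therefore not an independent test. In that fit 65 of 20867 genes passed, which is 0.311% of them, and 16 of those, 0.0767% of the genes, were lower at 800 ppb. With the site term the estimate was close, -0.71 (SE 0.138, interval -1.02 to -0.41), but the edgeR adjusted p was 0.25. Only 9 genes, 0.0431%, passed with the site term, 1 of them (0.00479%) lower at 800 ppb, and no member was called there, while 1 member, selenop, had an unadjusted p under 0.05, as had 4.75% of all genes. DESeq2 with the same site term did call selenop (adjusted p = 0.000279), and it called no other member.

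In the cluster fit, 598 of 20867 genes (2.87%) had an estimate at or below that of selenop, and among the 11000 genes that averaged at least 10 CPM these were 12 (0.109%). With the site term they were 1125 (5.39%) of all genes and 66 (0.6%) of those 11000. These counts include selenop itself. Its lower level was the starting point of the question, so its rank among genes is not independent evidence. Of the 36 tested members, 2 had such an estimate in each fit, selenop included. With the library cluster term the other was DIO1 (-0.93). With the site term it was not DIO1 but 1 of the small thioredoxin-fold and other selenoproteins (-0.87), which averaged under 10 CPM. Of the 24 members that averaged at least 10 CPM, selenop was the only one in either fit. Selenop supplied 29.9% and 30.5% of all reads counted on members at 800 ppb, against 36.7% to 43.3% in the 5 libraries at 0 ppb. The summed level of the other members was 1324 and 1401 CPM at 800 ppb, against 1360.3 and 1459.5 CPM at 0 ppb in the same cluster. In whole embryos, fewer cells of a type and less RNA per cell cannot be told apart.

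**Figure D1:**
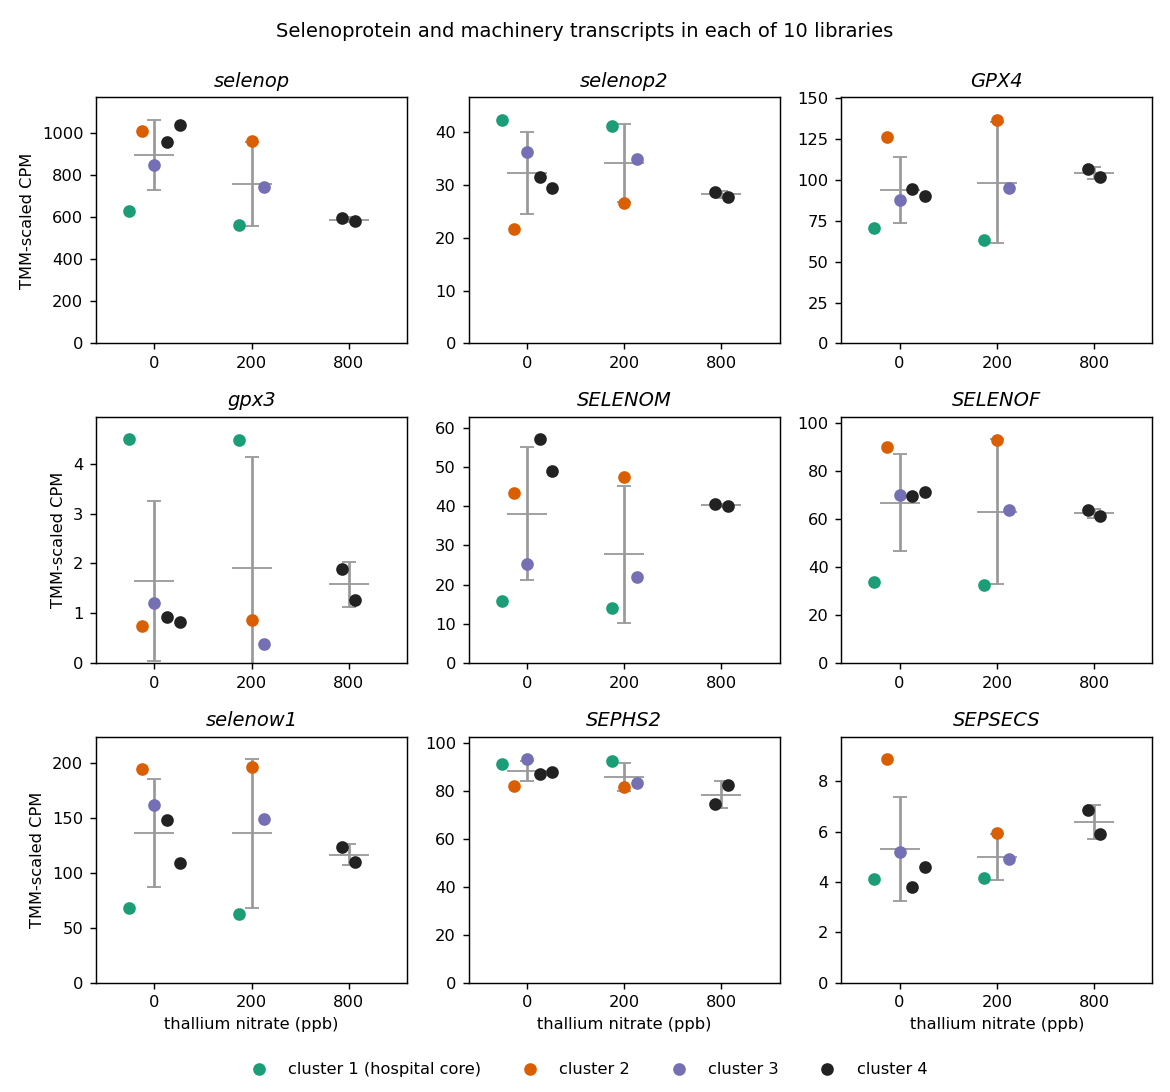
TMM-scaled CPM of 9 members against the thallium nitrate dose; points are libraries coloured by library cluster, and grey bars are the mean ± SD of a dose (n = 5, 3 and 2; bars that would pass below 0 are cut there). Selenop at 800 ppb (597 and 581.5 CPM) lies below the 5 libraries at 0 ppb, while the other panels overlap between 800 ppb and 0 ppb.

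The paralog selenop2, whose protein is a shorter relative of selenoprotein P, was not lower to the same extent. It had 42.4, 21.7, 36.3, 31.6 and 29.4 CPM at 0 ppb, 41.2, 26.6 and 34.9 CPM at 200 ppb, and 28.7 and 27.8 CPM at 800 ppb. The 800 ppb libraries lay inside the range of the 0 ppb libraries. The log2 fold change was -0.11 with the library cluster term (SE 0.114, interval -0.35 to 0.13, edgeR adjusted p = 0.883), and the interval does not reach the selenop estimate.

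The estimates of the members at 800 ppb lay around 0. The median log2 fold change of the 36 members was -0.09 with the library cluster term, against 0.00 over all genes tested, and 14 of the 36 estimates were above 0. This median rested on single libraries: it was 0.01 without replicate 4 of 0 ppb. Of the 35 members other than selenop, 27 had an estimate within 0.3 of 0, and 29 had a 95% interval that lay wholly above the selenop estimate of -0.76. The remaining 6, namely DIO1, DIO2, dio3b, TXNRD2 (ENSDARG00000075923), selenou1b and the SELENOO row ENSDARG00000014395, had intervals that hold it. These 6 averaged between 0.79 and 3.74 CPM at 800 ppb, and the SEs of their estimates were 0.285 to 0.623. With the site term, 27 of the 35 had an interval wholly above the selenop estimate of that fit. Intervals wholly above the whole selenop interval numbered 27 with the library cluster term and 16 with the site term. The shares of all genes with such intervals were not computed, so these counts do not set the members apart from other genes. The lower selenop level was the starting point of the question, so its estimate is not an independent yardstick for them. Besides selenop, only SELENOM and SEPSECS had an unadjusted p under 0.05 in the library cluster fit, in opposite directions, where 7.32% of all genes had one.

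**Figure D2:**
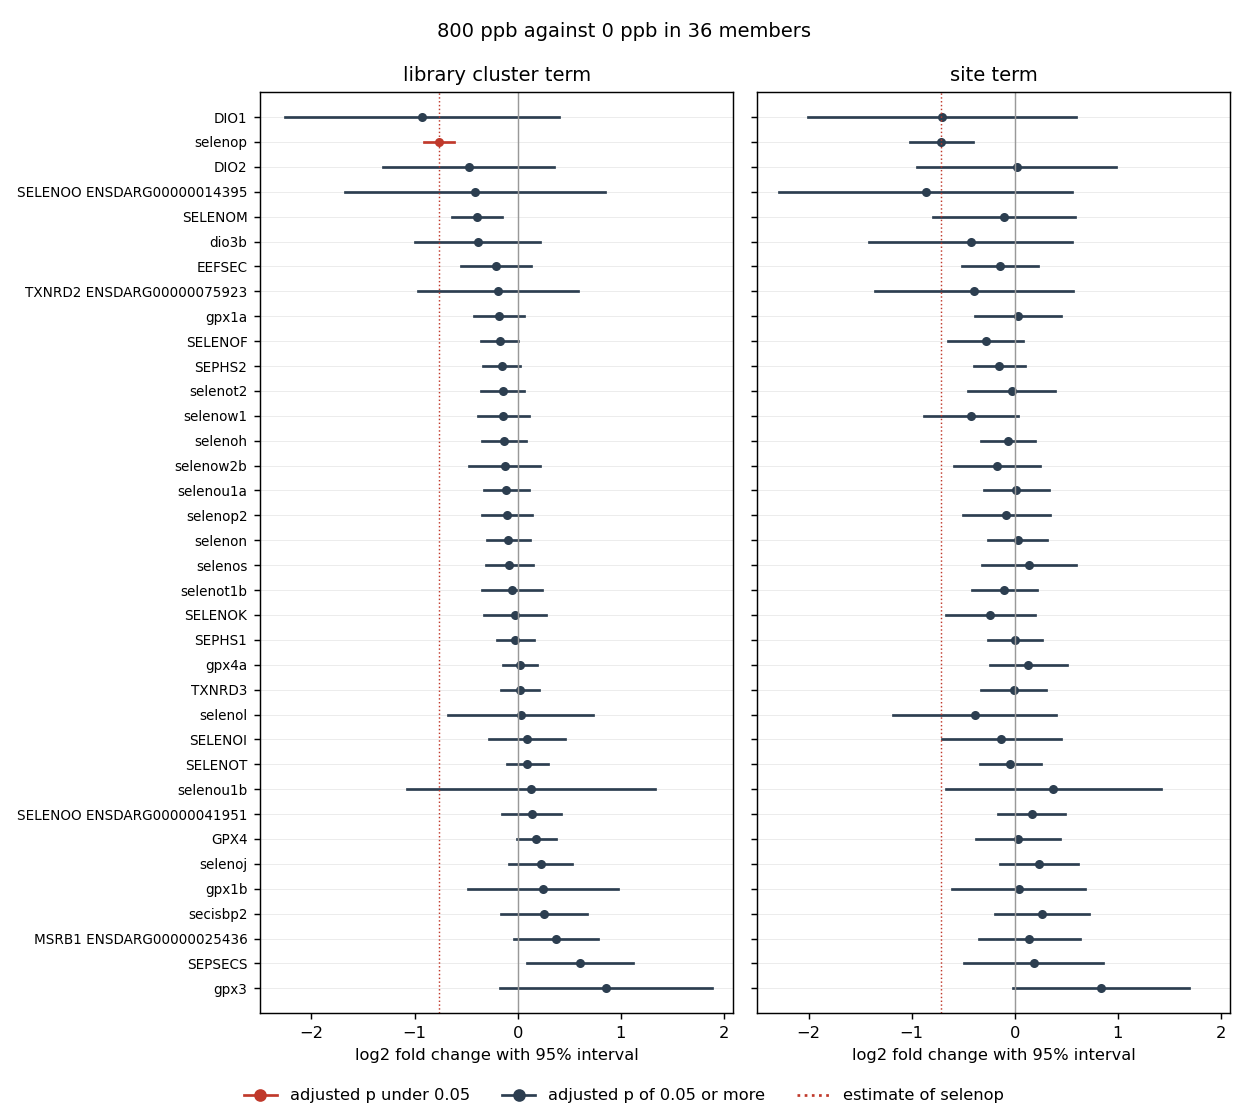
Log2 fold change with its 95% interval for the 36 tested members at 800 ppb against 0 ppb, with the library cluster term on the left and the site term on the right; red marks an adjusted p under 0.05 and the dotted line the selenop estimate of that panel. Of the 35 other members, 29 with the cluster term and 27 with the site term have intervals wholly right of the dotted line. The share of all genes with such intervals was not computed.

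None of the 5 tested glutathione peroxidases passed the threshold at 800 ppb, and 4 of them had estimates above 0 with the library cluster term. GPX4, taken here for gpx4b, encodes an enzyme that reduces lipid peroxides in membranes. It had 70.6, 126, 87.7, 94.5 and 90.1 CPM at 0 ppb, 63.0, 137 and 94.9 CPM at 200 ppb, and 107 and 102 CPM at 800 ppb. The 800 ppb libraries were above both 0 ppb libraries of their cluster but inside the 0 ppb range. The share of all genes separated in this way within the cluster was not computed. GPX4 was named for the smallest p of its group in the cluster fit, so this order is not independent of that choice. Its log2 fold change was 0.18 (SE 0.088, interval -0.01 to 0.37, edgeR adjusted p = 0.702). Its paralog gpx4a had an estimate of 0.02 (interval -0.14 to 0.18).

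The cytosolic peroxidase genes gpx1a and gpx1b had log2 fold changes of -0.18 (interval -0.42 to 0.06) and 0.25 (interval -0.48 to 0.97). The gene of the secreted peroxidase, gpx3, was barely expressed. It had 4.49, 0.75, 1.21, 0.93 and 0.83 CPM at 0 ppb, 4.47, 0.87 and 0.39 CPM at 200 ppb, and 1.89 and 1.26 CPM at 800 ppb. Only the hospital core's libraries reached 4 CPM, at both doses they hold, and the 800 ppb libraries exceeded each of the provider's 0 ppb libraries, as in 6.53% of all genes. The estimate of 0.86 had an SE of 0.480 (edgeR adjusted p = 0.755).

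The 2 tested thioredoxin reductases, which keep thioredoxin reduced, gave no call at 800 ppb. TXNRD3 had an estimate of 0.02 at 800 ppb against 0 ppb (SE 0.087, interval -0.16 to 0.21). TXNRD2 (ENSDARG00000075923), the mitochondrial enzyme in mammals, had 3.71, 4.10, 1.48, 2.11 and 2.04 CPM at 0 ppb, 4.55, 3.23 and 1.87 CPM at 200 ppb, and 1.40 and 2.28 CPM at 800 ppb. Groups overlapped, and the estimate of -0.19 had an SE of 0.362.

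The methionine sulfoxide reductase MSRB1 (ENSDARG00000025436), which repairs oxidised methionine, had 7.43, 8.33, 11.6, 8.61 and 6.56 CPM at 0 ppb, 7.66, 8.87 and 10.6 CPM at 200 ppb, and 10.6 and 8.93 CPM at 800 ppb. The 800 ppb libraries were above both 0 ppb libraries of their own cluster and inside the range of all 5. How many of all genes show that order within the cluster was not computed. Its log2 fold change was 0.37 (SE 0.192, edgeR adjusted p = 0.721).

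All 3 deiodinases had estimates below 0 with the library cluster term, with a median of -0.47, and none passed. DIO1, whose enzyme converts thyroid hormone by removing iodine, had 1.84, 1.24, 1.48, 0.51 and 3.09 CPM at 0 ppb, 2.25, 2.23 and 1.48 CPM at 200 ppb, and 0.77 and 1.18 CPM at 800 ppb. These are 11 and 14 reads at 800 ppb and 6 to 101 reads at 0 ppb, and both 0 ppb libraries of the cluster lay on either side of the 800 ppb pair. The estimate of -0.93 (SE 0.623, edgeR adjusted p = 0.786) had no stable sign: it was -1.68 without replicate 4 of 0 ppb and 0.92 without replicate 5. DIO2, which makes the active hormone, had -0.47 (SE 0.388) and dio3b, which inactivates it, -0.39 (SE 0.285), and with the site term DIO2 stood at 0.02.

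Selenoproteins of the endoplasmic reticulum and of membranes formed a group of 9. None passed, 2 had estimates above 0, and the median with the library cluster term was -0.08. SELENOM, a thioredoxin-like protein of the endoplasmic reticulum lumen, had the smallest p of all members after selenop. Its level was 15.9, 43.3, 25.3, 57.0 and 49.0 CPM at 0 ppb, 13.9, 47.4 and 21.9 CPM at 200 ppb, and 40.5 and 39.9 CPM at 800 ppb. The 800 ppb libraries were below both 0 ppb libraries of their cluster but well inside the range over all 5, which was 3.58 times from lowest to highest. The share of all genes with that order within the cluster was not computed, and SELENOM was named for its small p in the cluster fit. The log2 fold change in the cluster fit was -0.40 (SE 0.113, interval -0.64 to -0.16, unadjusted p = 0.00318, edgeR adjusted p = 0.316). With the site term it was -0.10 (SE 0.314), and with the cluster term but without replicate 4 of 0 ppb it was -0.28.

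SELENOF, a protein of the folding quality control in the same compartment, had 33.7, 89.9, 70.0, 69.4 and 71.2 CPM at 0 ppb, 32.5, 92.8 and 63.9 CPM at 200 ppb, and 63.6 and 61.1 CPM at 800 ppb. Both 800 ppb libraries were below the provider's 4 libraries at 0 ppb, as in 6.11% of all genes, and above the hospital core's. Its log2 fold change was -0.17 with the library cluster term (SE 0.085, edgeR adjusted p = 0.697) and -0.28 with the site term (SE 0.165, adjusted p = 0.93). The other 7 had estimates between -0.15 (selenot2) and 0.09 (SELENOT). They include selenon (-0.09), whose loss causes muscle disease in humans, selenos (-0.08) and SELENOK (-0.03), which take part in the removal of misfolded proteins, and SELENOI (0.09), an enzyme of phospholipid synthesis.

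Among 9 small thioredoxin-fold and other selenoproteins, none passed, 4 had estimates above 0, and the median with the library cluster term was -0.11. For selenow1, a small protein abundant in muscle in mammals, the level was 68.1, 194, 162, 148 and 109 CPM at 0 ppb, 62.5, 196 and 149 CPM at 200 ppb, and 123 and 109 CPM at 800 ppb. Groups overlapped widely. The log2 fold change was -0.14 with the library cluster term (SE 0.116) and -0.42 with the site term (SE 0.208, edgeR adjusted p = 0.93), and it turned to 0.10 with the cluster term when replicate 4 of 0 ppb was left out.

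The gene selenoj, whose selenoprotein is known from fish, had 11.5, 21.3, 15.2, 17.0 and 19.5 CPM at 0 ppb, 10.9, 17.9 and 14.9 CPM at 200 ppb, and 23.5 and 19.1 CPM at 800 ppb. Its 800 ppb values lay at the upper end of the 0 ppb range, and its log2 fold change was 0.22 (SE 0.144, edgeR adjusted p = 0.777). The SELENOO row ENSDARG00000041951, whose protein modifies other mitochondrial proteins in mammals, had 18.1 and 20.3 CPM at 800 ppb, against 14.7 to 17.9 CPM at 0 ppb. It was the only member with both 800 ppb libraries above all 5 libraries at 0 ppb, a pattern that 4.86% of all genes showed, and its estimate was 0.14 (SE 0.133). Selenop was the only one below all 5, as were 3.8% of all genes.

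The machinery that makes selenocysteine and places it in proteins showed no called member among the 5 tested. SEPHS2, itself a selenoprotein, makes the activated selenium donor, and SEPSECS completes selenocysteine on its transfer RNA. SEPHS2 had 91.1, 82.1, 93.3, 87.0 and 87.7 CPM at 0 ppb, 92.4, 81.6 and 83.0 CPM at 200 ppb, and 74.4 and 82.4 CPM at 800 ppb. The spread at 0 ppb was narrow, with the highest library 1.14 times the lowest, and 1 of the 800 ppb libraries lay inside it. The log2 fold change was -0.16 (SE 0.086, edgeR adjusted p = 0.747).

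SEPSECS had 4.11, 8.89, 5.19, 3.80 and 4.60 CPM at 0 ppb, 4.14, 5.96 and 4.90 CPM at 200 ppb, and 6.86 and 5.90 CPM at 800 ppb. The 800 ppb libraries were above both 0 ppb libraries of their cluster and below replicate 2 of 0 ppb. The share of all genes above both was not computed, and SEPSECS was named for the smallest p of its group in the cluster fit. Its log2 fold change was 0.60 with the library cluster term (SE 0.242, unadjusted p = 0.0252, edgeR adjusted p = 0.616), with the site term it was 0.18 (SE 0.305), and with the reads recovered from the other count set it was 0.30. The remaining factors had estimates of -0.02 for SEPHS1 (SE 0.084), -0.21 for the elongation factor EEFSEC (SE 0.159), and 0.26 for secisbp2 (SE 0.197), which binds the element in the transcript that marks UGA for selenocysteine.

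In some members the hospital core's libraries, replicate 1 of 200 and of 0 ppb, stood apart from the provider's. The level of gpx1a there was 10.2 CPM at 200 ppb and 10.9 CPM at 0 ppb, against 22.1 to 34.5 CPM in the other 8 libraries. SELENOF and selenow1 were low in the same pair, and the SELENOO row ENSDARG00000014395 was high there, with 3.94 CPM at 200 ppb and 3.89 CPM at 0 ppb against 0.51 to 2.80 CPM elsewhere. Over the 5 libraries at 0 ppb, the highest was 1.14 times the lowest for SEPHS2, 1.22 times for the SELENOO row ENSDARG00000041951, 1.23 times for TXNRD3 and 1.25 times for selenon. At the other extreme it was 7.68 times for the SELENOO row ENSDARG00000014395 and 6.11 times for DIO1. For selenop it was 1.65 times, and its lowest 0 ppb library was the hospital core's.

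**Figure D3:**
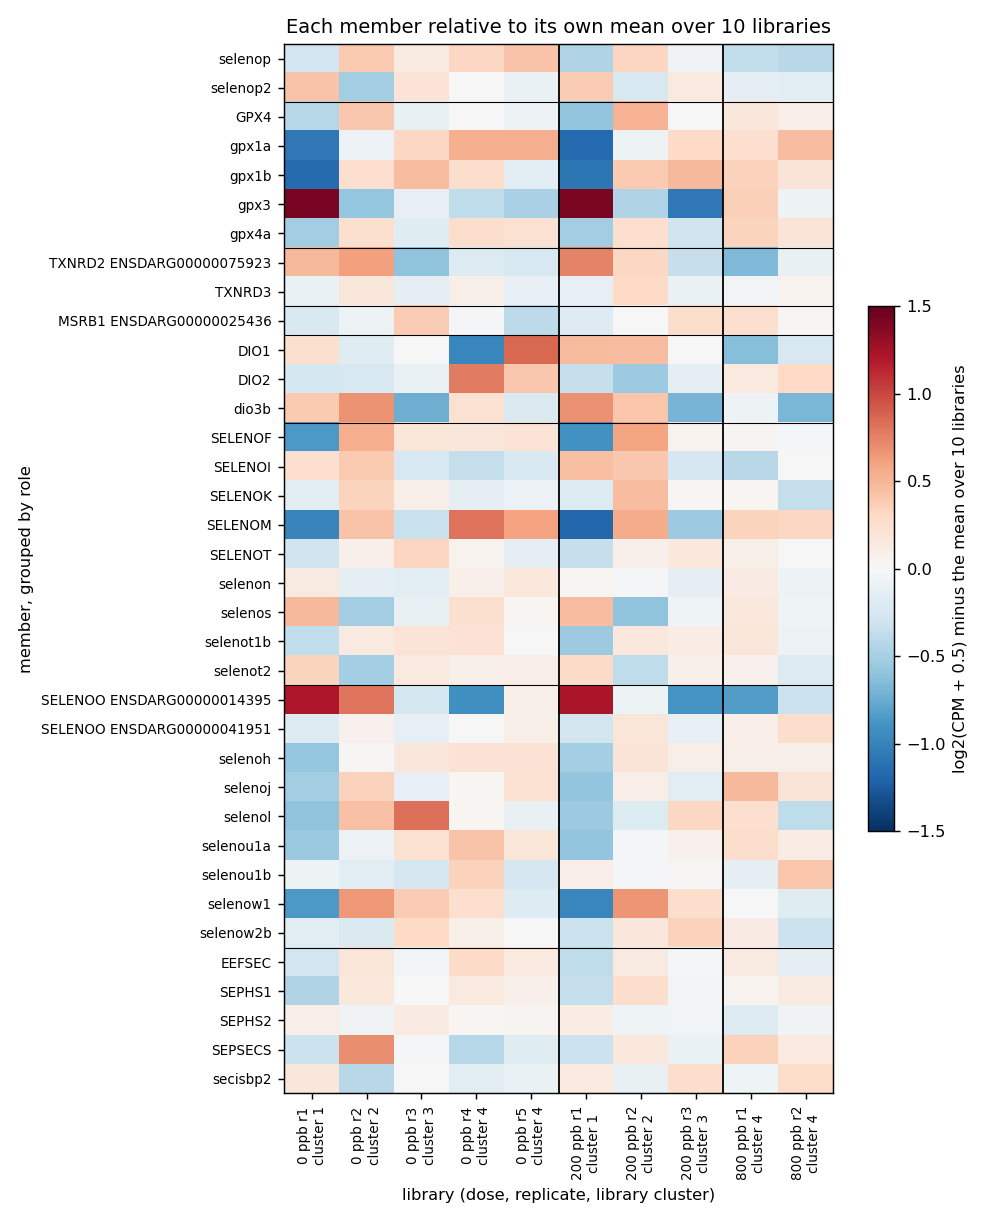
Level of each of the 36 tested members in 10 libraries, as log2(CPM + 0.5) minus the member's mean over the libraries, with members grouped by role and libraries ordered by dose. Columns of replicate 1 at 0 and 200 ppb resemble each other. Selenop is below its mean in both 800 ppb libraries, in both hospital core libraries and in replicate 3 of 200 ppb.

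At 200 ppb no member passed the threshold against 0 ppb, and neither did any other gene. The edgeR fit called 0 of 20867 genes (0%) with either term. With the library cluster term 230 genes (1.1%) had an unadjusted p under 0.05, selenop being the only member among them, and with the site term 120 genes (0.575%) and no member did. The alternatives described in the closing section called no member either. The median log2 fold change of the 36 members was -0.01 with the library cluster term, against 0.00 for all genes, and 32 of the 36 estimates were within 0.3 of 0. Estimates ran from -0.51 for the SELENOO row ENSDARG00000014395 to 0.37 for DIO1, both with few reads.

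Selenop at 200 ppb stood at 0.894, 0.951 and 0.877 of the same-numbered 0 ppb library in replicates 1, 2 and 3, so it was lower in 3 of 3 pairs. In the cluster fit its log2 fold change was -0.14 (SE 0.054, interval -0.26 to -0.02, unadjusted p = 0.0207, edgeR adjusted p = 1). It was -0.17 with the site term. Selenoj and DIO2 were also lower in 3 of 3 pairs, as were 12.4% of all genes. DIO1, gpx1b and selenou1b were higher in 3 of 3 pairs, as were 11.6% of all genes. The selenop2 ratios were 0.972, 1.22 and 0.962.

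No library cluster holds both doses, so 800 ppb was compared with 200 ppb in the cluster fit as the difference of their contrasts, each against the 0 ppb libraries of its own clusters. That difference was a log2 value of -0.62 for selenop, lower at 800 ppb (SE 0.086, interval -0.81 to -0.44, edgeR adjusted p = 0.0237), and 16 genes (0.0767%) passed in that comparison, 7 of them (0.0335%) lower. Without any single one of replicates 1 to 3 at 200 or 0 ppb the estimate stayed between -0.65 and -0.59 and the call was lost (edgeR adjusted p 0.129 to 0.252). No other member passed, and 3 members had an unadjusted p under 0.05, as had 4.34% of all genes. The next smallest p belonged to SEPSECS, with an estimate of 0.82 (SE 0.299, unadjusted p = 0.016, edgeR adjusted p = 0.999). The site term was used only for each dose against 0 ppb. There the 0 ppb libraries of both sites entered the fit for both doses, but both 800 ppb libraries came from the provider. Without replicate 1 of 0 ppb, the site-term estimate of selenop at 800 ppb was -0.71, as with it. With the library cluster term 800 ppb was set against replicates 4 and 5 of 0 ppb and 200 ppb against replicates 1 to 3.

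**Figure D4:**
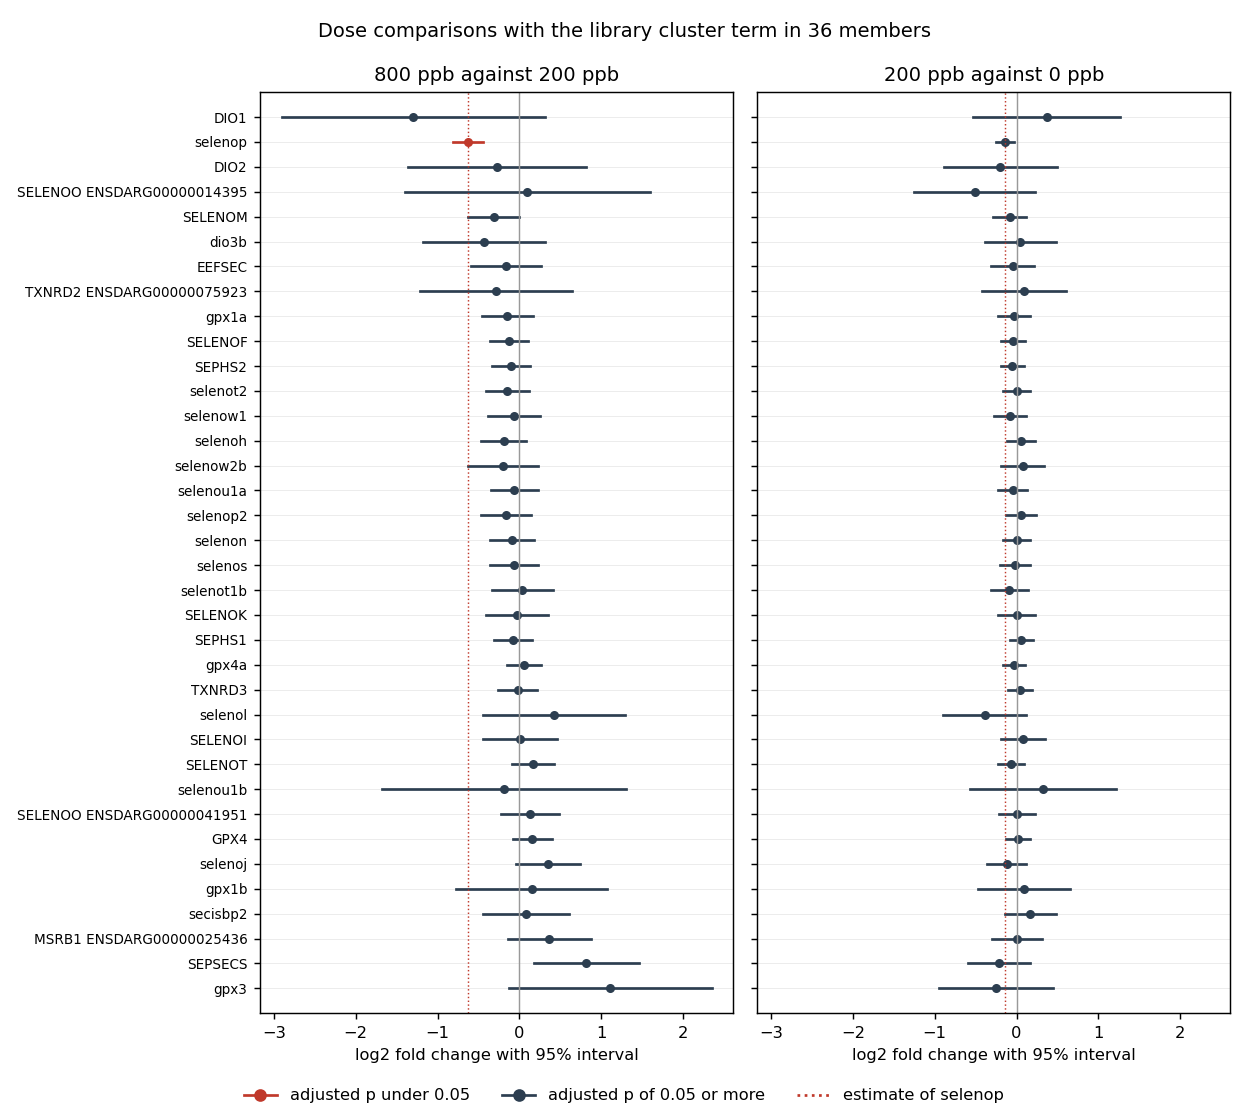
Log2 fold change with its 95% interval for the 36 tested members with the library cluster term, for 800 ppb against 200 ppb on the left and 200 ppb against 0 ppb on the right; red marks an adjusted p under 0.05 and the dotted line the selenop estimate of that panel. Selenop is the only called member on the left (-0.62), and no member is called on the right.

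Transcripts that are lost early under selenium shortage in mammals were set beside those that are kept. Of the 5 zebrafish rows matched to the sensitive ones, none passed at 800 ppb, and the estimates with the library cluster term were -0.18 for gpx1a, 0.25 for gpx1b, -0.14 for selenow1, -0.12 for selenow2b and -0.13 for selenoh, a nuclear DNA-binding protein. Their median was -0.13, and -0.06 with the site term. The 4 rows matched to kept transcripts were gpx4a, GPX4, TXNRD2 (ENSDARG00000075923) and TXNRD3. The median of these 4 was 0.02 with the library cluster term and 0.01 with the site term, and none passed. The difference between these lists was not tested.

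Genes outside the membership that take up or use selenium were also measured. Of 12 tested, none passed at 800 ppb with either term, and their median with the library cluster term was 0.00. The selenoprotein P receptor gene LRP8 had an estimate of -0.10 (SE 0.090), and LRP2 had 0.21 (SE 0.159). SARS1 charges serine onto the selenocysteine transfer RNA as well as onto the serine ones. It had 205 and 185 CPM at 800 ppb, against 135 to 167 CPM at 0 ppb. Both 800 ppb libraries were thus above all 5 at 0 ppb, as in 4.86% of all genes. Its estimate was 0.23 (SE 0.077, edgeR adjusted p = 0.473). SCLY, which releases selenium from selenocysteine, had 0.52 (SE 0.253, adjusted p = 0.695) with the library cluster term and -0.06 with the site term.

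A list of genes whose proteins use cysteine, some of them relatives of selenoproteins, included 1 called gene among 14 tested, where 0.311% of all genes passed. The list was chosen with earlier results of these data known. In the library cluster fit, msrb2 rose at 800 ppb; it encodes a methionine sulfoxide reductase that is mitochondrial in mammals. It had 21.0, 25.5, 30.1, 28.4 and 23.2 CPM at 0 ppb, 20.2, 27.7 and 30.5 CPM at 200 ppb, and 42.0 and 38.0 CPM at 800 ppb. The 800 ppb libraries were above every other library. In 4.86% of all genes both 800 ppb libraries lay above all 5 libraries at 0 ppb. The log2 fold change was 0.64 (SE 0.119, edgeR adjusted p = 0.0356) with the library cluster term and 0.56 (adjusted p = 0.731) with the site term. The other 13 tested genes of this list did not pass, among them the thioredoxin and peroxiredoxin genes, and the median of the 14 was 0.03. The smallest p among them belonged to the prdx1 row ENSDARG00000058734, with 0.44 (SE 0.145, adjusted p = 0.452).

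**Figure D5:**
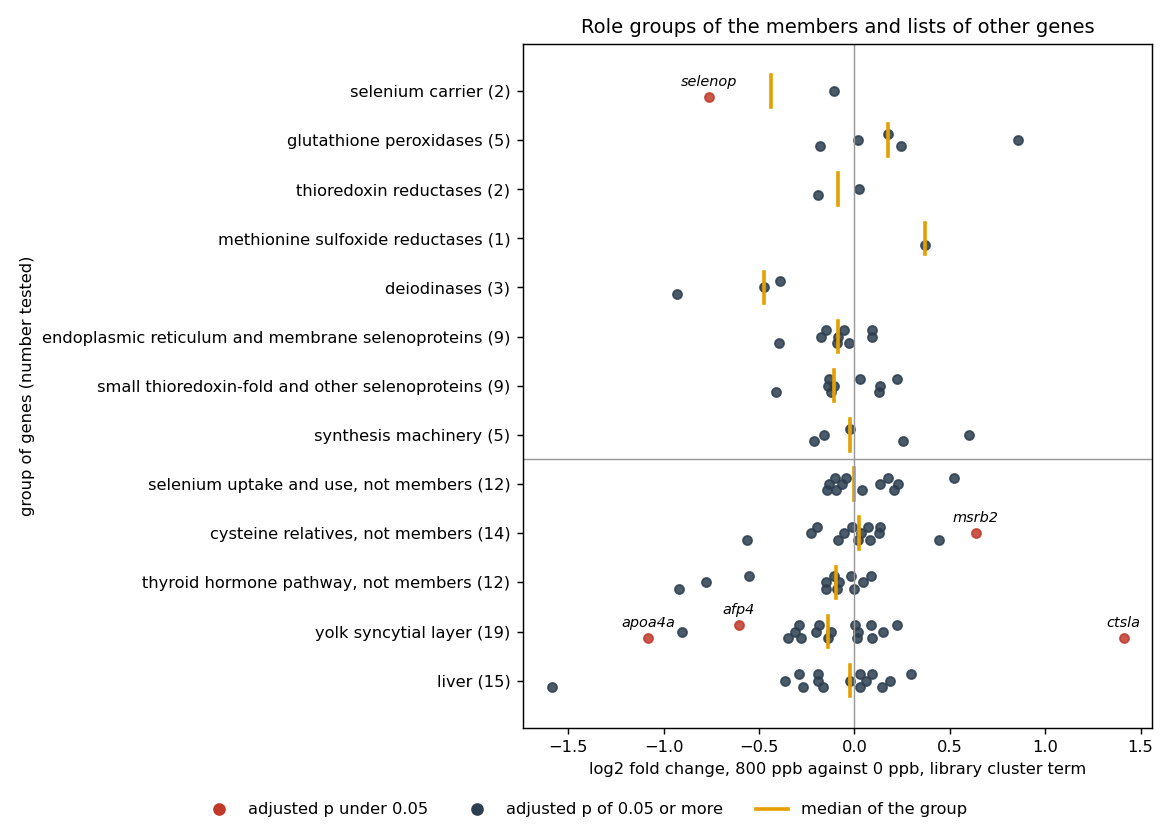
Log2 fold change at 800 ppb against 0 ppb with the library cluster term for the 8 role groups of members (above the line) and for lists of other genes (below it); each point is a gene, red points have an adjusted p under 0.05 and are named, and orange bars are medians. Selenop is the only red point among the members, and the lists hold msrb2, ctsla, apoa4a and 1 afp4 row.

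Selenoprotein P is made mainly by the liver in mammals, so markers of liver and of the yolk syncytial layer, the embryo's secretory layer around the yolk, were read beside it. The summed level of 18 liver genes was 4530.4 and 5508 CPM at 800 ppb, against 4659 and 5431 CPM in the 0 ppb libraries of the same cluster and 2938 to 6636 CPM in all 5. None of the 15 tested passed, the median with the library cluster term was -0.02, and the hepatocyte marker fabp10a had only 2.11 and 3.64 CPM at 800 ppb, against 0.82 to 7.41 CPM at 0 ppb. With the library cluster term 3 of the 15 had an unadjusted edgeR p under 0.05, against 7.32% of all genes. With the site term 1 had one, against 4.75%. Estimates with the cluster term ran from -1.59 to 0.30. The smallest p belonged to apom, with -0.36 (SE 0.101, edgeR adjusted p = 0.298), and the next to FGG, with 0.30 (SE 0.088, adjusted p = 0.341). Of the 18, 4 averaged under 1 CPM. The gene rbp4 is in this list and in that of the yolk syncytial layer, so their sums are not separate.

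The 19 yolk syncytial layer genes summed to 11189 and 12806 CPM at 800 ppb, against 11217 and 12856 CPM at 0 ppb in the same cluster and 10411 to 16309 CPM in all 5. With the library cluster term 3 of the 19 passed, where 0.311% of all genes did. The apolipoprotein gene apoa4a fell, with a log2 fold change of -1.08 (SE 0.134) that was also called with the site term (-1.16, edgeR adjusted p = 0.044). Its level was 14.4 and 16.0 CPM at 800 ppb, against 17.1 to 36.3 CPM at 0 ppb. In 3.8% of all genes both 800 ppb libraries lay below all 5 libraries at 0 ppb. The afp4 row ENSDARG00000095863 fell by 0.60 on the log2 scale, and ctsla, a lysosomal protease gene, rose by 1.41, while neither passed with the site term (-0.85 and 0.98, edgeR adjusted p = 0.93 and 0.671). An unadjusted edgeR p under 0.05 was found for 8 of the 19 with the library cluster term, against 7.32% of all genes. With the site term it was found for 5, against 4.75%. This list and that of the liver genes were chosen with earlier results of these data known. The counts beside the shares of all genes are therefore not an independent test. The median of the 19 was -0.14 with the library cluster term and -0.29 with the site term, where 14 were below 0. The part of these genes in the selenop result was not tested.

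The thyroid hormone genes beside the deiodinases gave no call. Of 12 tested, 2 had estimates above 0 and the median with the library cluster term was -0.10. The thyrotropin gene TSHB had an estimate of -0.92 (SE 0.855, edgeR adjusted p = 0.866). Thyroid markers were weak, with a sum of 33.1 and 40.6 CPM at 800 ppb, against 35.4 to 57.8 CPM at 0 ppb, and none of the 5 tested passed. None of the 7 tested rows for other embryo tissues passed either. With either term 6 of these 7 had estimates below 0, and 2 had an unadjusted edgeR p under 0.05. Their median was -0.09 with the library cluster term and -0.25 with the site term. The part of such shifts in the selenop result was not tested.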

How the data were processed

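Per the labels' protocols, RNA was extracted with TRIzol and libraries were built at a hospital core or by a commercial provider. Per the submitters' processing notes, FastQC, cutadapt, STAR, edgeR and the build GRCz11 were used; the sources used here give no counter, annotation release or strand setting, so reads of overlapping genes on opposite strands cannot be separated. Raw counts of reads for every Ensembl gene, 1 file a library, were deposited. The hospital core's files held 463 further features (0.339% and 0.342% of counts), and the 32057 shared genes were used. A further deposited table gives 18963 genes on a log2 CPM scale; undoing the logarithm gave whole reads for 100% of values within 0.05 reads, and these served as an alternative input. Between both sets, reads were equal for the hospital core, and totals were 1.12 to 1.19 times as large in the series table for the provider.

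Symbols came from a table naming 28988 of the 32057 genes, some in human style. Of 20 named entries, 14 matched by symbol, 3 after dropping a final letter (gpx4b, and msrb1a and msrb1b, which share MSRB1) and 3 not at all (dio3a, secisbp2l and pstk, not analysed here). Reads of near-identical paralogs may have been split between rows. The members, the lists and the library cluster fit were chosen with earlier results of these data known.

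The main fits used all 10 libraries and edgeR 4.0.16 (R 4.3.3): TMM scaling, filterByExpr by dose group, dose plus site or library cluster, quasi-likelihood F-test, two-sided, Benjamini-Hochberg over 20867 genes, threshold 0.05. The spread behind the 2 libraries of 800 ppb is therefore that of all groups. Common dispersion was 0.0419 with the site term and 0.00757 with the cluster term, and the median SE of a log2 fold change at 800 ppb was 0.24 and 0.185. Intervals are 95% and use the fit's t distribution. For the clusters, the log ratio of both count sets over 13232 genes with at least 50 reads was correlated between the provider's 8 libraries; r ran between 0.903 and 0.952 inside a cluster and between 0.748 and 0.818 across clusters, and their number of 3 was set, not estimated. Named with values in every library were selenop, selenop2, each called member, and in each role group the member with the smallest p at 800 ppb with each term; of the other lists, called genes and those with the 2 smallest p, of which 1 gene is not reported here. Same-numbered libraries of 0 and 200 ppb, which share a library cluster, deviated together from their dose means (r = 0.931, 0.596 and 0.765 for replicates 1, 2 and 3). They were read as pairs. For 0 and 800 ppb r was -0.203 and 0.0375. Same-numbered libraries there lie in different clusters, and deviations of only 2 libraries from their mean mirror each other, so pairing could not be judged. Alternatives were other scalings, no filter, DESeq2 1.42.0, limma-voom and limma-trend with limma 3.58.1, the other count set, sample subsets and a replicate block. The script was tested on simulated data. Plots were drawn with matplotlib 3.10.9 and tables with scipy 1.17.1, pandas 2.3.3 and Python 3.11.15.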

Additional observations from a re-analysis of the deposited data

Results flagged for a closer look

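Among the 5 libraries at 0 ppb, 3 of the 36 tested members had 1 library far from the rest by Dixon's criterion. Its nominal rate is about 5% where libraries differ by chance alone. These 5 came from both sites and all 4 library clusters, so that rate need not hold here. The share over all genes was not computed. The level of gpx3 in replicate 1, from the hospital core, was 4.49 CPM, against 0.746 to 1.21 CPM in the others. The level of selenou1b in replicate 4 was 1.18 CPM, against 0.603 to 0.748 CPM, and that of SEPSECS in replicate 2 was 8.89 CPM, against 3.80 to 5.19 CPM. The selenop log2 fold change at 800 ppb against 200 ppb was -0.624 with the library cluster term (edgeR adjusted p = 0.0237). In that fit each dose was set against different 0 ppb libraries, in different library clusters. The call was lost without any single one of replicates 1 to 3 at 200 or 0 ppb, so a difference between the doses is not settled.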

How the results depend on the processing

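With the library cluster term, selenop at 800 ppb against 0 ppb stayed the only called member under all 20 alternatives, with log2 fold changes of -0.82 to -0.71. These include the 4 libraries of its own cluster alone, 2 against 2 (-0.77, adjusted p = 0.00474). The cluster term sets 800 ppb against 0 ppb within these 4 libraries. Alternatives that left out libraries of other clusters could therefore barely move the estimate, and they add little to its stability. It was -0.77 without replicate 1 of 0 ppb. Genes called in that comparison numbered 22 to 216. With the site term no member was called except by DESeq2 (1) and with a replicate block added to the site term. The block called 9 of 36 members and 6590 of 20867 genes in all, a smaller share of the members than of all genes. In that block replicates 4 and 5 of 0 ppb carry no dose information by construction, and same-numbered libraries of 0 and 800 ppb lie in different library clusters. GPX4 turned to -0.36 there, against 0.03 without the block, while selenop had -0.84, SELENOF -0.60 and selenow1 -0.87. Apart from the block, alternatives with the site term called 0 to 43 genes. At 200 ppb the block, over all libraries or over replicates 1 to 3 alone, called 0 members and 6 or 2 genes in all, and it changed no other call. At 800 ppb against 200 ppb, leaving out 1 library gave 0 to 1 called members, and leaving out both hospital core libraries gave 0 (selenop -0.64, adjusted p = 0.111). The cause of these losses was not tested. At 12.1 and 14.9 megareads per 800 ppb library, gpx3, DIO1, selenou1b and the SELENOO row ENSDARG00000014395 rest on 8 to 27 reads. This limits what can be read from them.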
